A study of Mus musculus with 8 samples.

Results

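Notch signalling passes between touching cells. Ligands of the Jagged and Delta-like families on one cell bind Notch receptors on its neighbour, the receptor is cut by ADAM proteases and then by gamma-secretase, and the freed intracellular part joins the DNA-binding protein RBPJ and a Mastermind coactivator in the nucleus. Hes1, a repressor, and Nrarp, a feedback inhibitor, are among the genes this complex switches on. In blood, Notch1 is known for directing progenitors to the T cell lineage, Notch2 for marginal zone B cells, and several ligands for their presence on bone marrow endothelial and stromal cells.

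The 10 genes described here are 4 receptors (Notch1, Notch2, Notch3 and Notch4), 4 ligands (Jag1, Jag2, Dll1 and Dll4) and 2 targets (Hes1 and Nrarp). They were found by gene name among 46113 gene IDs, of which 21991 have exons and 12751 had enough exon reads to be tested. RNA came from sorted C57BL/6 mouse bone marrow cells at an age of 8 to 10 weeks. The 4 HSC libraries (hematopoietic stem cells) hold CD150+ CD34- cells, and the 4 HPC libraries (progenitor cells) CD150+ CD34+ cells, all of them Sca1+, c-Kit+ and lineage-negative. No mutation, transgene or treatment is named for either fraction. The preparation text given with all libraries names 5000 sorted HSC only, and no label tells whether each library stands for an animal of its own. The p-values therefore rest on a spread between libraries that may be technical.

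Library depth was 16291733 to 19070313 exon reads in HSC and 18223082 to 20564901 in HPC. In the check of the sort, Cd34 RNA was 92.8 ± 16.7 TPM in HSC and 940.1 ± 35.7 in HPC (TPM is the level of transcripts per exon length as the authors give it, here as mean ± SD, n = 4). Slamf1, the gene of CD150, was 26.8 ± 4.58 TPM in HSC and 2.16 ± 0.598 in HPC, although both fractions were sorted as CD150+. Ly6a, the gene of Sca1, was 263 ± 25.6 against 139 ± 16.5 TPM, and Kit was 342 ± 92.4 against 263 ± 36.4 TPM with no call (adjusted p = 0.080, edgeR; called without HSC replicate 4, adjusted p = 0.024). In these bulk samples, fewer cells that carry a transcript and less of it per cell cannot be told apart.

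The promoters of 4 genes are printed because these genes changed between the fractions and their annotated start in RefSeq equals that of the deposited files. Each line holds the 250 bases before the start, 5′ to 3′ on the gene's own strand, in GRCm38.p6. Capitals mark 2 motifs that Hes-type repressors are known to bind, CACNAG (the N-box) and CACGCG (the class C site), searched on both strands.
Notch1, chr2:26503823-26504072, minus strand: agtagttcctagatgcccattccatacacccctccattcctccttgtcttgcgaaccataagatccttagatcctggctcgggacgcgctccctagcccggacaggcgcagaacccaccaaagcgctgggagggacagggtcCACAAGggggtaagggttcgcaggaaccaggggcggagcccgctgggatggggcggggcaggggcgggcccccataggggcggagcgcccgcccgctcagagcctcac
Jag1, chr2:137116521-137116770, minus strand: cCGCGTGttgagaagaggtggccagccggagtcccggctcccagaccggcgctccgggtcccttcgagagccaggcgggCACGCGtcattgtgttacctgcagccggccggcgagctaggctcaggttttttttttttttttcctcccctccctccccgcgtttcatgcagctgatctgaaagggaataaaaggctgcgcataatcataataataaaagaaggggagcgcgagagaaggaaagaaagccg
Dll4, chr2:119325534-119325783, plus strand: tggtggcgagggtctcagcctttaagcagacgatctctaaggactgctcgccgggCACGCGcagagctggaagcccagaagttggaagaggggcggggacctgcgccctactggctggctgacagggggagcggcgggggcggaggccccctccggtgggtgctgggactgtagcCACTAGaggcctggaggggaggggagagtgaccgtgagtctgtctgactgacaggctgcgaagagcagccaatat
Nrarp, chr2:25180508-25180757, plus strand: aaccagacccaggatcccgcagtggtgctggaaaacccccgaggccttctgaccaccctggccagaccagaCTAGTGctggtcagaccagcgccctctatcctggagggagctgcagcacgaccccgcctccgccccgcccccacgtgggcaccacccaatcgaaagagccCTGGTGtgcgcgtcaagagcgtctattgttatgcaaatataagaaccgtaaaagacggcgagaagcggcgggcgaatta
CACNAG occurred 1 time before Notch1, 1 time before Dll4 and 2 times before Nrarp, and 36.7% of the 32851 RefSeq promoter windows of this length hold it. CACGCG occurred 1 time before Dll4 and 2 times before Jag1, and 7.62% of all windows hold it. TGGGAA, the core letters of RBPJ sites, lay in none of the 10 windows found for 9 of the genes, while 21.6% of all windows hold it. These matches are descriptions of letters in a short window and say nothing of binding.

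Between HSC and HPC, 6 of the 10 genes were higher in HSC (Notch3, Jag1, Dll1, Dll4, Hes1 and Nrarp), Notch1 was lower, and Notch2, Notch4 and Jag2 had no call. Calls are at an adjusted p under 0.05 in edgeR's quasi-likelihood test on exon reads, with Benjamini-Hochberg adjustment across the whole table. Of all 12751 genes, 37.1% were called in either direction, 19.6% higher in HSC and 17.6% lower. The groups lay fully apart for 7 of the 10 genes, in library-scaled reads (CPM) as in TPM, against 36.7% of all genes in CPM and 34.8% in TPM. The median log2 change was 1.36 over the 10 genes and 0.00 over all genes. All 10 passed the filter on low counts, but Notch3, Jag1, Dll1 and Dll4 had under 10 reads in at least 1 HPC library and passed it through HSC, so the counts over members are descriptions.

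**Figure D1:**
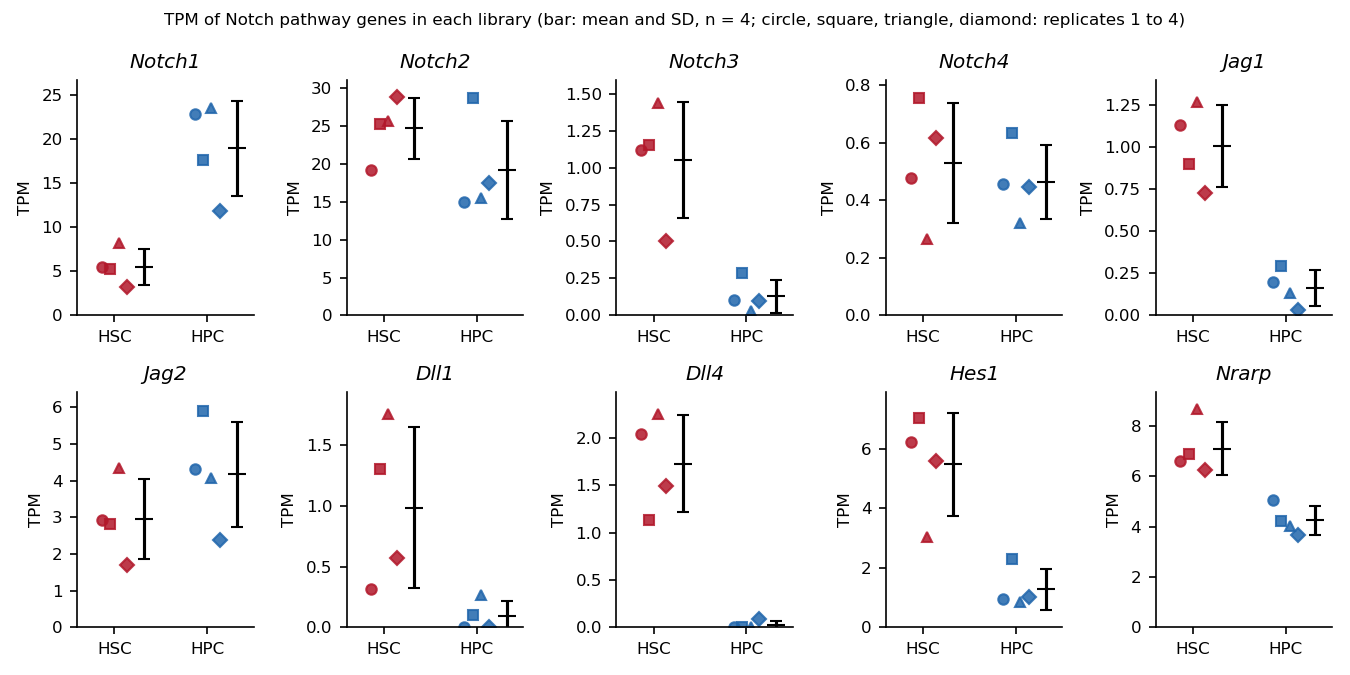
TPM of the 10 genes in each library (y axes, each from 0 on its own scale) for the 4 HSC (red) and 4 HPC (blue) libraries, with symbols for replicates 1 to 4 and black bars for the mean and SD. Notch1 lies lower in every HSC library than in any HPC library, Jag1, Dll1, Dll4, Hes1, Nrarp and Notch3 lie higher, and Notch2, Notch4 and Jag2 overlap.

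Notch1 (gene 18128, chromosome 2, 26457902 to 26503822, minus strand, 34 exons) was the one member called lower in HSC. Its level was 5.45, 5.23, 8.24 and 3.25 TPM in HSC replicates 1 to 4 and 22.9, 17.6, 23.5 and 11.9 TPM in HPC replicates 1 to 4. The lowest HPC library, replicate 4, stayed above the highest HSC library, replicate 3. In CPM, Notch1 was 3.59-fold lower in HSC, a log2 change of -1.84 ± 0.22 (SE, adjusted p = 1.0e-05). Every Notch1 exon read was uniquely placed, 1928 in HSC and 6920 in HPC. Reads that span an exon junction gave -2.07 ± 0.38 (adjusted p = 7.2e-04) and intron reads -1.75 ± 0.32 (adjusted p = 0.0012), so the difference was present in both kinds of read. Under the 24 alternatives tried it lay between -2.07 and -1.62 and kept its call.

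Notch2 (gene 18129, chromosome 3, 98013538 to 98150367, plus strand, 34 exons) had the highest mean level of the 10 genes in both fractions. In HPC its range overlapped that of Notch1, and the means were close (19.2 ± 6.45 against 19.0 ± 5.43 TPM). Notch2 stood at 19.1, 25.2, 25.7 and 28.8 TPM in HSC and at 15.0, 28.7, 15.5 and 17.5 TPM in HPC. HPC replicate 2 lay among the HSC libraries, and the log2 change of 0.31 ± 0.19 had no call (adjusted p = 0.23). Without that library the change was 0.56 and was called (adjusted p = 0.014).

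Few Notch2 reads crossed exon junctions. Over all libraries 3.02% of its exon reads did so, against a median of 50.4% over 6686 genes with at least 10 exons and 1000 reads, of which 0.613% had a lower share. Junction reads numbered 46, 96, 55 and 42 in HSC and 79, 104, 79 and 32 in HPC for Notch2, and 85, 78, 163 and 31 in HSC and 493, 364, 498 and 201 in HPC for Notch1, which has as many exons. By junction reads Notch1 thus stood above Notch2 in every HPC library and in HSC replicates 1 and 3. The Notch2 change turned to -0.20 (adjusted p = 0.72) in junction reads and -0.42 (adjusted p = 0.061) in intron reads, with no call in either. How the TPM of Notch2 would read without its junction-poor reads was not tested.

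**Figure D2:**
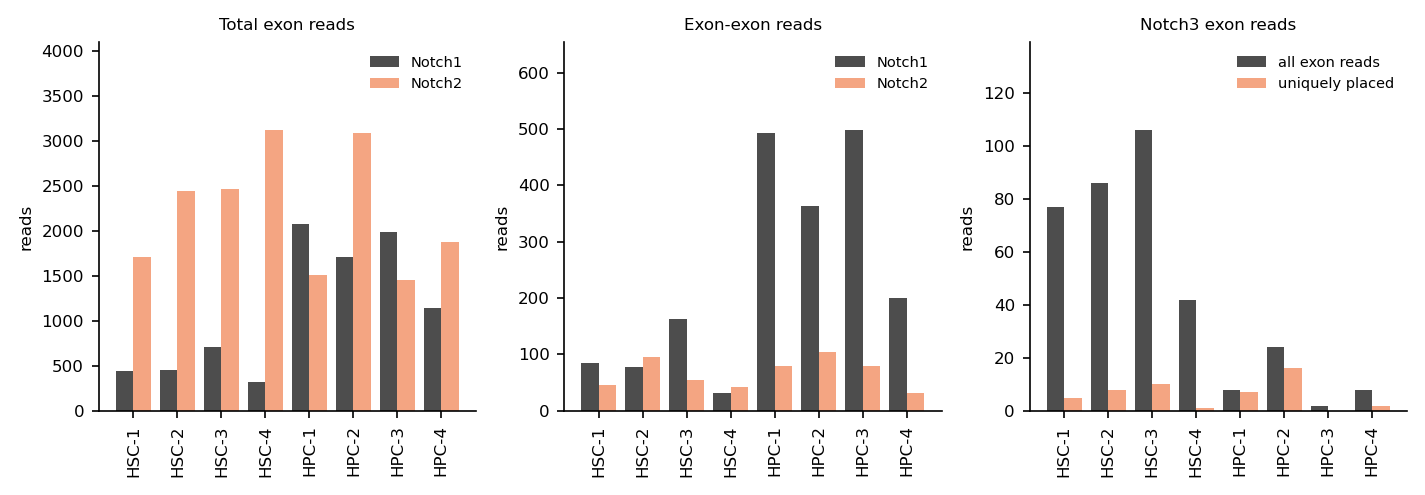
Reads per library (y axis) for Notch1 (dark) and Notch2 (light) in total exon reads (left) and in junction-spanning exon-exon reads (middle), and for Notch3 (right) in all exon reads (dark) and uniquely placed ones (light). Notch2 has the taller exon bars in all HSC libraries, Notch1 has the taller junction bars in all HPC libraries, and the uniquely placed Notch3 reads stay at 16 or fewer in every library.

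By TPM the make-up of receptor RNA differed between the fractions. Notch1 made up 20.8%, 16.2%, 23.1% and 9.80% of the summed receptor TPM in HSC and 59.5%, 37.3%, 59.8% and 39.7% in HPC, with no overlap. Notch1 was itself called lower in HSC, so these shares are a description and no separate result. Notch2 over Notch1 was 3.12 to 8.86 in HSC and 0.657 to 1.63 in HPC. These values rest on the Notch2 TPM with its junction-poor reads. Summed junction reads were 357 for Notch1 and 239 for Notch2 in HSC, and 1556 and 294 in HPC. The summed receptor level itself, 31.8 ± 4.01 TPM in HSC and 38.7 ± 7.09 in HPC, overlapped between the fractions.

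Notch3 (gene 18131, chromosome 17, 32120820 to 32166896, minus strand, 36 exons) was called higher in HSC, but not on uniquely placed exon reads. All exon reads numbered 77, 86, 106 and 42 in HSC and 8, 24, 2 and 8 in HPC, a log2 change of 2.91 ± 0.57 (adjusted p = 9.9e-04) that became 3.64 without HPC replicate 2. Uniquely placed exon reads numbered 5, 8, 10 and 1 in HSC and 7, 16, 0 and 2 in HPC, 24 against 25 in sum. On those reads, with no count filter, the change was -0.01 ± 1.07 (adjusted p = 0.997). Of the Notch3 exon reads 7.72% were uniquely placed in HSC and 59.5% in HPC, and 5.88% of tested genes had a lower share over all libraries.

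Junction reads of Notch3 were 1, 3, 5 and 0 in HSC and 6, 11, 0 and 0 in HPC. Its intron reads were higher in HSC, at 373, 356, 486 and 354 against 20, 36, 58 and 39 (log2 change 3.33 ± 0.26, adjusted p = 7.9e-07). The uniquely placed intron reads also lay apart, at 114, 100, 88 and 88 in HSC and 17, 15, 16 and 27 in HPC. Gm38585, on the opposite strand, overlaps 10673 bases of Notch3 and had 202 to 436 gene reads in HSC and 13 to 36 in HPC. Whether counting used strand is not given in the sources used here, so reads of Notch3 and Gm38585 cannot be told apart.

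Notch4 (gene 18132, chromosome 17, 34564277 to 34588543, plus strand, 33 exons), a receptor known mainly from endothelium, was low in both fractions. Reads numbered 27, 46, 16 and 42 in HSC and 29, 43, 19 and 30 in HPC, and the groups overlapped. The level was 0.528 ± 0.209 TPM in HSC and 0.465 ± 0.128 in HPC, with a log2 change of 0.14 ± 0.47 (adjusted p = 0.85). The gene lies on 4 rows of the files because it also sits on alternate loci, and none of its reads was uniquely placed.

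Among the ligands, Jag1, Dll1 and Dll4 were higher in HSC while Jag2 had no call. Dll4 (gene 54485, chromosome 2, 119325784 to 119335666, plus strand, 11 exons), a ligand of endothelium and of the thymus, had the largest change of the 10 genes. Its reads numbered 60, 36, 71 and 53 in HSC and 0, 0, 0 and 3 in HPC. Scaled to library size, 220 against 3 reads is a ratio of 73.7, with an exact Clopper-Pearson 95% interval of 24.9 to 360.0 for counting error only. A library without a read still allows up to 3 reads, or 0.149 to 0.179 CPM over the 8 libraries.

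The log2 change of Dll4 was 5.98 ± 0.82 (adjusted p = 4.4e-05). All HPC reads came from replicate 4, and without that library Dll4 was at least 18.6-fold higher in HSC, taking the same floor of 3 reads in each HPC library left. Gm14207, on the opposite strand, shares 414 bases with Dll4 and had 33 to 71 gene reads in HSC and 0 to 8 in HPC, and the reads of the overlap cannot be told apart. Junction reads, which need spliced transcripts, gave 4.99 for Dll4 (adjusted p = 3.4e-04).

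Jag1 (gene 16449, chromosome 2, 137081451 to 137116520, minus strand, 28 exons), the Jagged ligand best known from vessels and stroma, was present at 1.13, 0.898, 1.27 and 0.728 TPM in HSC and at 0.196, 0.292, 0.134 and 0.0335 TPM in HPC. The groups lay apart, and HPC replicate 4 was the lowest with 4 reads. Jag1 was 5.97-fold higher in HSC by CPM, a log2 change of 2.56 ± 0.48 (adjusted p = 6.2e-04). Junction reads gave 2.16 (adjusted p = 0.015).

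Dll1 (gene 13388, chromosome 17, 15367354 to 15376048, minus strand, 13 exons), a Delta-like ligand that marginal zone B cells depend on, was read 10, 45, 60 and 22 times in HSC and 0, 4, 9 and 0 times in HPC. The groups did not overlap, but HSC replicate 1 and HPC replicate 3 came within 1 read of each other. The ratio of summed reads, scaled to library size, was 10.6, with an exact Clopper-Pearson 95% interval of 5.99 to 20.4 for counting error only. That interval leaves out the spread between libraries. The log2 change was 3.31 ± 0.89 (adjusted p = 0.0087), and it moved to 4.56 without HPC replicate 3 and to 3.998 under voom with sample quality weights.

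Jag2 (gene 16450, chromosome 12, 112907803 to 112929517, minus strand, 30 exons), a second Jagged ligand, stood at 2.93, 2.82, 4.36 and 1.71 TPM in HSC and 4.33, 5.91, 4.07 and 2.39 TPM in HPC. The groups overlapped, replicate 4 was the lowest in each, and the log2 change of -0.57 ± 0.28 had no call (adjusted p = 0.13). Without HPC replicate 4 the change was -0.74 and was called lower (adjusted p = 0.047).

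The make-up of ligand RNA differed as well. Jag2 made up 43.7 ± 3.76% of the summed ligand TPM in HSC and 93.9 ± 2.12% in HPC. Jag1, Dll1 and Dll4 made up the rest, 54.3%, 54.2%, 54.8% and 62.0% in HSC and 4.34%, 6.28%, 9.01% and 4.74% in HPC. This restates the Jag2 share and is no further result. The genes summed are those called higher in HSC, which also passed the count filter through HSC, so the split is a description. The summed ligand level was 6.68 ± 2.15 TPM in HSC and 4.45 ± 1.55 in HPC, and these ranges overlapped.

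Both target genes were higher in HSC, by different amounts. Hes1 (gene 15205, chromosome 16, 30065357 to 30067796, plus strand, 5 exons) encodes a helix-loop-helix repressor. Its level was 6.25, 7.03, 3.04 and 5.61 TPM in HSC and 0.968, 2.32, 0.843 and 1.02 TPM in HPC. HSC replicate 3 was the lowest of its group and HPC replicate 2 the highest of its own, without overlap. Hes1 was 4.14-fold higher by CPM, a log2 change of 2.03 ± 0.45 (adjusted p = 0.0022), with 2.38 in junction reads (adjusted p = 0.0050) and 2.12 in intron reads (adjusted p = 0.0086).

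Nrarp (gene 67122, chromosome 2, 25180758 to 25183339, plus strand, 1 exon), which binds the nuclear Notch complex and limits it, stood at 6.60, 6.89, 8.66 and 6.27 TPM in HSC and 5.06, 4.24, 4.04 and 3.68 TPM in HPC. The groups lay apart by a narrow margin. It was 1.60-fold higher in HSC, a log2 change of 0.68 ± 0.21 (adjusted p = 0.020). The call was lost without HSC replicate 3 (0.62, adjusted p = 0.056) and without both libraries numbered 4 (0.66, adjusted p = 0.061). Reads listed as intron reads gave 0.84 with no call (adjusted p = 0.32). The 1 exon of Nrarp fills its whole annotated span, so these reads do not come from an annotated intron and are no check of the call.

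**Figure D3:**
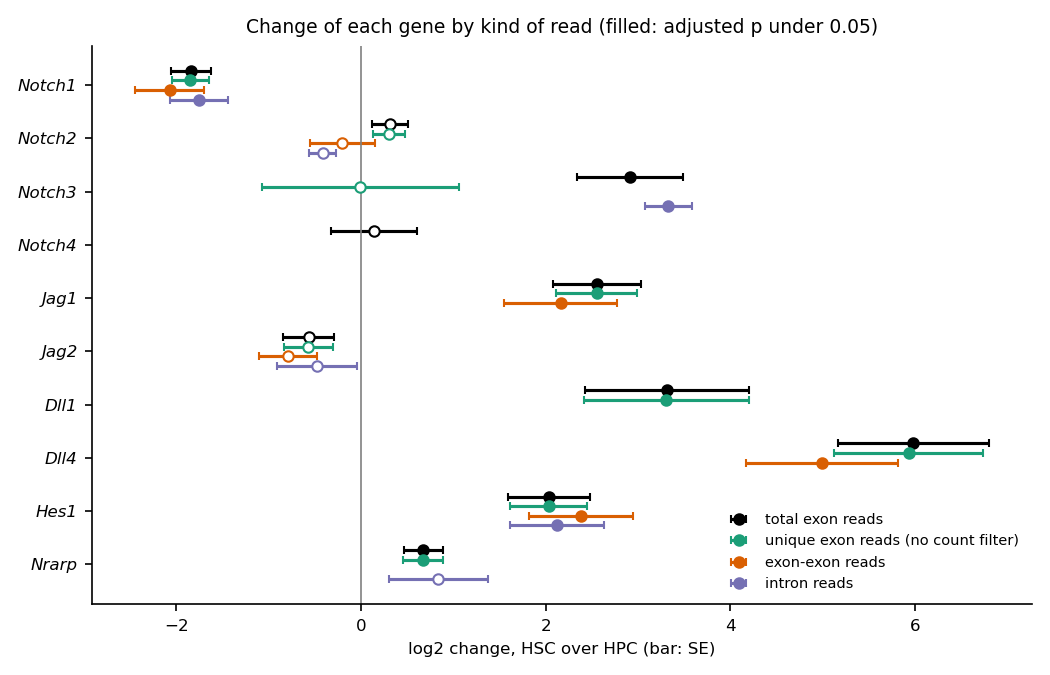
Log2 change, HSC over HPC, with its SE (x axis) for each gene in 4 kinds of read: all exon reads, uniquely placed exon reads without a count filter, junction-spanning exon-exon reads and intron reads. Filled points had an adjusted p under 0.05, and a gene without a point for a kind had too few such reads. Notch1 is lower in all 4 kinds, and Notch3 sits near 0 in uniquely placed exon reads and above 2 in all exon reads and in intron reads.

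In uniquely placed exon reads 8 of the 10 genes could be tested, and 5 were higher and 1 lower, while 19.0% of all genes were higher and 17.4% lower (36.4% in either direction). Without the count filter 9 were tested, again with 5 higher and 1 lower, beside 15.1% and 13.0% of all genes (28.1%). In junction reads 3 of 6 tested members were higher (Jag1, Dll4 and Hes1) and 1 was lower (Notch1), beside 16.1% and 14.9% of all genes (31.0%). Intron reads gave 2 higher (Notch3 and Hes1) and 1 lower (Notch1) of 6 tested, beside 10.8% and 9.43% of all genes (20.2%). The 6 include Nrarp, which has no annotated intron.

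In order of mean TPM, HSC held Notch2, Nrarp, Notch1, Hes1, Jag2, Dll4, Notch3, Jag1, Dll1 and Notch4. Only Notch2 was parted from its neighbour in that order, and all other neighbours overlapped. In HPC the order was Notch2, Notch1, Nrarp, Jag2, Hes1, Notch4, Jag1, Notch3, Dll1 and Dll4. There the ranges did not overlap between Notch1 and Nrarp, Jag2 and Hes1, Hes1 and Notch4, or Notch4 and Jag1. Among all tested genes, Notch2 lay above 57.3% in HSC and 51.9% in HPC, Notch1 above 26.0% and 51.6%, and Dll4 above 12.2% and 0.573%.

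Of the other genes of the pathway, in 7 lists, 66 were tested, and 17 were higher and 10 lower in HSC, beside 19.6% and 17.6% of all genes. Dtx4, a Deltex family ubiquitin ligase, was lower in HSC (0.495 ± 0.172 against 7.30 ± 1.86 TPM, log2 change -3.92 ± 0.28, adjusted p = 7.0e-08). The change was -2.09 in intron reads (adjusted p = 0.014) and -2.45 on log2(TPM + 1). Maml3, a Mastermind coactivator, was also lower (3.03 ± 0.473 against 12.3 ± 2.50 TPM, -2.07 ± 0.16, adjusted p = 1.4e-07).

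Of the other ligands and ligand-like proteins, 3 of 9 were tested and all 3 were called. Mfap2, a microfibril protein reported to bind Notch, was higher in HSC (19.2 ± 2.13 against 1.52 ± 0.350 TPM, log2 change 3.59 ± 0.22). Dlk1, a Delta-like protein that lacks the usual receptor-binding domain, was higher too (3.93 ± 1.38 against 0.465 ± 0.127 TPM, 2.99 ± 0.34), and uniquely placed exon reads without the count filter gave 3.17 with no call (adjusted p = 0.11). Egfl7, a secreted protein of vessels and blood progenitors, was lower (123 ± 8.24 against 269 ± 23.5 TPM, -1.19 ± 0.09). Dll3 was not tested, at 0.175 ± 0.0312 TPM in HSC and listed at 0 in HPC.

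Among the genes that cut receptors and ligands, 4 of 10 were higher and 2 lower, with a median log2 change of 0.06. Psen2, a catalytic subunit of gamma-secretase, was higher in HSC (46.4 ± 3.39 against 20.8 ± 2.62 TPM, log2 change 1.09 ± 0.13, adjusted p = 1.3e-05). Furin, which cuts the receptor precursor, changed by 0.68 ± 0.13 and Aph1c, a gamma-secretase subunit, by 0.74 ± 0.16, and both lost the call in junction reads (0.70 and 0.53, adjusted p = 0.063 and 0.057), Furin also in intron reads (0.56, adjusted p = 0.072). Psenen, the most abundant of the list at 348 ± 15.8 and 339 ± 12.5 TPM, had no call (adjusted p = 0.90).

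The sugar-adding enzymes gave 1 call of 6, with a median of 0.19. Rfng, a Fringe glycosyltransferase, was at 0.40 ± 0.15 (adjusted p = 0.046) and lost that call, leaving none in the list, when HPC replicate 3 or 4 or HSC replicate 2, 3 or 4 was left out (0.31 to 0.40, adjusted p = 0.076 to 0.13). Mfng, the most abundant Fringe at 103 ± 7.63 and 91.9 ± 14.9 TPM, had no call (adjusted p = 0.43). In the list of ubiquitin ligases and trafficking adaptors 1 gene of 14 was higher and 2 were lower, with a median of -0.11. Besides Dtx4, Dtx2 was lower (-0.57 ± 0.15, adjusted p = 0.0082), with no call in intron reads (-0.09, adjusted p = 0.91). Numbl, a Numb-like adaptor, was higher (0.72 ± 0.26, adjusted p = 0.042) but not when HPC replicate 1, 3 or 4 or HSC replicate 1, 2 or 4 was left out (0.62 to 0.76, adjusted p = 0.062 to 0.12). Dtx3, the most abundant, had no call (0.24, adjusted p = 0.060), and gained one without HSC replicate 4 (0.29, adjusted p = 0.027). With 1 library left out, 0 to 2 genes of the list were higher.

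Of 16 genes of the nuclear complex and its corepressors, 2 were higher and 1 lower, with a median of 0.08. Rbpj itself, named after its values were seen, was at 21.4 ± 4.45 and 24.7 ± 4.60 TPM and had no call (-0.27 ± 0.12, adjusted p = 0.11). Maml2 was higher (0.81 ± 0.12, adjusted p = 8.8e-05), opposite to Maml3, but had no call in junction reads (0.44, adjusted p = 0.42) or intron reads (0.39, adjusted p = 0.067). The list had 1 gene higher when HPC replicate 3 or 4 or HSC replicate 1, 2 or 3 was left out, and 2 genes lower without HPC replicate 3. Ctbp1, the most abundant, had no call (adjusted p = 0.74).

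In the list of other Hes and Hey factors and related repressors, 4 of 11 were tested, with 2 higher, 1 lower and a median of 0.63. The 2 higher genes were the related repressors Bhlhe40 and Bhlhe41 (1.47 ± 0.26 and 1.96 ± 0.49). Of the Hes and Hey factors themselves, Hes5 and Hes6 were tested, and neither was higher. Hes5, named after its values were seen, was at 5.50 TPM in HSC and 6.09 in HPC and had no call (-0.20, adjusted p = 0.57). Hes6, a family member known to counteract Hes1, was lower in HSC (62.5 ± 4.97 against 116 ± 13.8 TPM, -0.94 ± 0.11, adjusted p = 1.0e-05), with no call in junction reads (-0.66, adjusted p = 0.11). Among 13 further genes known as Notch targets in blood cells, 5 were higher and 3 lower, with a median of 0.33, and 3 were higher when HPC replicate 1 or 2 was left out. Gata2 (1.10 ± 0.09) and Gata3 (1.66 ± 0.15) were higher, while Myc (-0.70 ± 0.09), Il7r (-1.92 ± 0.20) and Cdkn1a (-2.28 ± 0.28) were lower. Bcl11b (1.08 ± 0.35), Id1 (1.89 ± 0.44) and Cr2 (1.59 ± 0.50), named after their values were seen, were higher (adjusted p = 0.025, 0.0032 and 0.022). The other 5, named after their values were seen, had no call. They were Ccnd1, Tcf7, Il2ra, Ptcra and Runx1 (adjusted p = 0.34, 0.50, 0.13, 0.90 and 0.062). Calls among these 13 targets thus went in both directions.

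**Figure D4:**
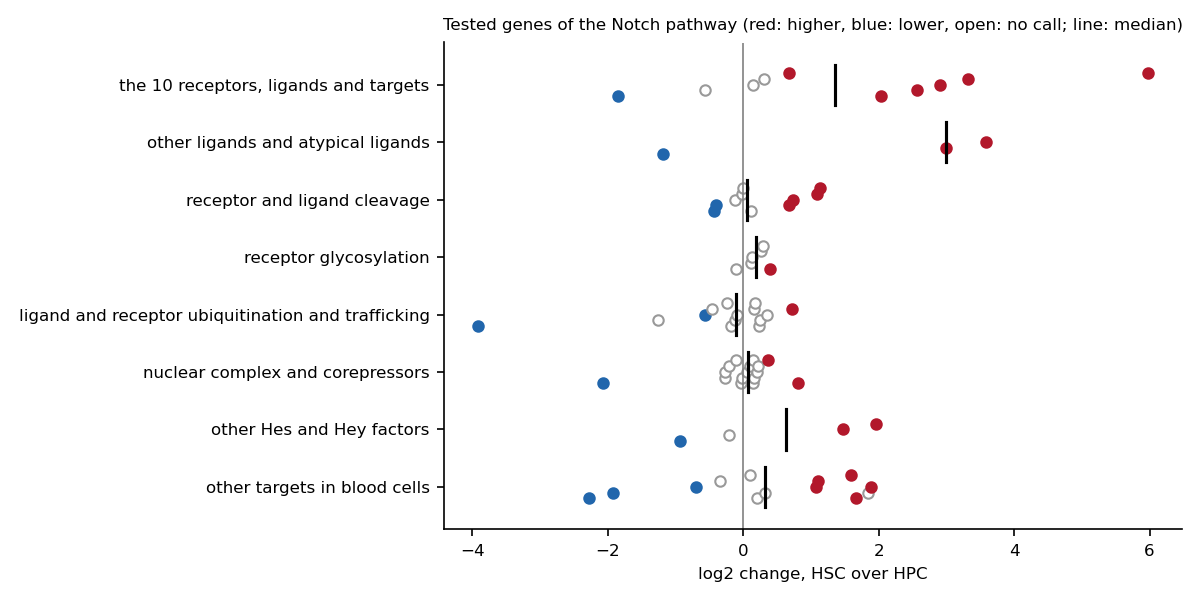
Log2 change, HSC over HPC (x axis), of each tested gene of the 10 members and of 7 other lists of the pathway, with called genes filled (red higher, blue lower), genes without a call open, and a black line at each list's median. Dll4 at 5.98 and Dtx4 at -3.92 are the ends of the range, and the medians of the cleavage, glycosylation, trafficking and nuclear lists lie between -0.11 and 0.19.

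Markers of cells that carry Notch ligands were read beside these results. Of 12 endothelial markers 10 were tested, and 6 were higher in HSC (Kdr, Emcn, Plvap, Sox18, Tie1 and Cldn5) and none lower. Over all genes 19.6% were higher and 17.6% lower. Their summed level was 130 to 177 TPM in HSC and 53.1 to 64.4 in HPC, mostly from Tie1 (89.1 ± 17.2 against 26.0 ± 1.79 TPM) and Emcn (40.1 ± 4.54 against 27.0 ± 4.27 TPM). Emcn lost its call when HPC replicate 1 or 2 or HSC replicate 2 was left out (0.38 to 0.47), and Plvap when HPC replicate 1, 2 or 3 or HSC replicate 2 or 3 was left out (0.59 to 0.75). Cldn5 was read in 1 HPC library, replicate 1, at 0.443 TPM, and was at 3.22 to 6.97 TPM in HSC. Kdr was at 0.886 to 3.26 TPM in HSC and 0.125 to 0.321 in HPC, and Sox18 at 13.0 ± 1.91 against 0.948 ± 0.572 TPM. Of the markers without a call or a test, Cdh5 was at 0.860 TPM or less, Flt1 at 0.235 TPM or less and Sox17 at 0 in all 8 libraries. Flt4 (0.36 ± 0.57), Stab2 (1.12 ± 0.77) and Ptprb (2.34 ± 1.08) had no call, each at 0.620 TPM or less.

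The 10 stromal markers summed to 3.91 to 9.10 TPM in HSC and 0.660 to 3.46 in HPC, led by Cxcl12 (2.81 ± 1.15 against 0.696 ± 0.706 TPM, log2 change 1.99). Of 3 tested, Cxcl12 and Alpl, the latter named after its values were seen, were higher. Cxcl12 changed by 2.89 without HPC replicate 1 and lost its call without both libraries numbered 4 (1.56, adjusted p = 0.065). Lepr, which marks marrow stroma, was at 0.184 TPM or less in all libraries. Among T cell markers, of interest for Notch1, Cd3e, Cd3d, Cd3g, Cd8a and Cd2 were higher in HSC, where Notch1 was lower, and Lck was lower (25.6 ± 3.06 against 73.3 ± 9.77 TPM). Cd8a lost its call without HPC replicate 1, 3 or 4 or HSC replicate 1 or 2 (1.31 to 1.76). Cd4 (-0.37), Cd5 (-0.13) and Thy1 (0.45) had no call. Over all genes 19.6% were higher and 17.6% lower. The sum of all 9 T cell markers overlapped, at 95.1 to 110 TPM in HSC and 87.1 to 115 in HPC. That sum includes Lck, the most abundant of them in both fractions, which went the other way. A sum without Lck was not taken. The part of other cells in the ligand differences was not tested.

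For each called member the 2 genes of nearest profile were taken over the 8 libraries, by the root mean square difference of log2 CPM centred on each gene's mean. Notch1 was nearest to Dock10 (0.19) and Mdga1 (0.21), with log2 changes of -1.78 and -1.58. Both were picked for likeness to Notch1, so the shared direction follows from the choice. Nearest to Jag1 were Ehd3 (0.32) and Mylk3 (0.33), to Dll4 Slc25a21 (0.35) and D630039A03Rik (0.46), and to Dll1 Zbtb46 (0.66) and Raver2 (0.70). Hes1 was nearest to Egr1 (0.27), an immediate early gene, and to Emc9 (0.36). Nrarp lay closest of all to its neighbours, Unc13d (0.05) and Vmac (0.07), and Notch3 was nearest to Ankrd33b (0.52) and Chad (0.53). These are descriptions over 10569 candidate genes at most, since 8 libraries of 2 groups are shared by every profile.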

How the data were processed

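Per the labels' protocols, Nextera XT libraries were built from SMARTer Pico cDNA of ISOGEN-extracted RNA after 18 PCR cycles. The genome build was mm10, per the submitters' processing notes. For the aligner, counter, annotation release and strand setting, nothing is given in the sources used here. Per the file headers, the deposited counts give exon, exon-exon, intron and gene reads of each row, both in total and for uniquely placed reads alone. Intron reads are also listed for Nrarp, whose single exon fills its span, so that class can hold reads from outside annotated introns. The deposited TPM was scaled by the authors per exon length and to a fixed sum per library.

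Rows were summed per gene ID. Total exon reads of all 21991 genes with exons were filtered with filterByExpr (minimum count 10), scaled by TMM and tested with edgeR 4.0.16 in R 4.3.3 (quasi-likelihood F test, no covariate, Benjamini-Hochberg over 12751 genes, threshold 0.05). The SE was taken as the absolute log2 change over the root of F. Levels between genes are TPM, and folds are ratios of mean CPM. Unique exon reads made up 81.5% to 85.5% of exon reads. The Clopper-Pearson intervals cover counting error only and leave out the spread between libraries. PCR copies were counted as reads, so these intervals may be too narrow even for that error. On simulated counts for this comparison (12633 genes), the fit found 46 of the 100 genes set to change 1.5-fold and 82 of the 100 set to change 2-fold, and 4 of its 132 calls were false.

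The members, the lists of other pathway genes and the marker lists were chosen with earlier results of these data known. Named were all members, from each pathway list up to 4 called genes of smallest adjusted p and the most abundant one, from the endothelial, stromal and T cell lists the most abundant one and, for endothelial and T cells, the called ones, the 4 sort markers, and for each called member the 2 genes of nearest profile (mean of at least 5 CPM). The B cell, megakaryocyte, red cell, and neutrophil and monocyte lists gave 2, 4, 3 and 0 genes higher and 0, 1, 0 and 2 lower. They held 5, 7, 7 and 5 tested genes, and over all genes 19.6% were higher and 17.6% lower. Cd79b, Hba-a1 and Lyz2 were the most abundant of the B cell, red cell, and neutrophil and monocyte lists. Some genes taken by the rule are not reported here. Alternatives were scaling by RLE or upper quartile, dropping the count filter, asking for 50 reads in 4 libraries, DESeq2 1.42.0, voom of limma 3.58.1, unique exon reads, gene reads, main-assembly rows, limma on log2(TPM + 1) and log2(TPM + 0.1) for genes of a mean TPM of at least 1, the replicate number as a block, and leaving out libraries. Exon-exon reads, intron reads and unique exon reads without a filter were added after seeing the data.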

Additional observations from a re-analysis of the deposited data

Results flagged for a closer look

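In 9 of 114 gene groups of 4 libraries, 1 library stood far from the other 3 by Dixon's criterion, which chance gives in about 1 of 20 groups. Of the members, Dll4 had its HPC reads in replicate 4 alone, at 0.0852 TPM, and Hes1 was at 2.32 TPM in HPC replicate 2 while the other HPC libraries lay between 0.843 and 1.02 TPM. Both lay below every HSC library.

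Among the other pathway genes, Numbl was at 3.97 TPM in HSC replicate 1, Maml3 at 2.32 TPM in HSC replicate 4, Gata3 at 20.8 TPM in HPC replicate 2 and Cdkn1a at 6.58 TPM in HSC replicate 1. Among the markers, Cldn5 was at 0.443 TPM in HPC replicate 1, Cd2 at 16.4 TPM in HSC replicate 4 and Hba-a1 at 663 TPM in HSC replicate 1.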

How the results depend on the processing

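Of the 10 genes, 6 were higher in HSC and 1 lower. The number higher was 2 (of 5 tested) with 50 reads in 4 libraries, 2 and 2 (of 5) on log2(TPM + 1) and log2(TPM + 0.1), 3 (of 6) in exon-exon reads and 2 (of 6) in intron reads, where fewer of the genes could be tested, and 5 to 7 with 1 library left out. The number lower was 1 to 2 with 1 library left out, since Jag2 joined Notch1 without HPC replicate 4. Of the other pathway genes, 17 of 66 were higher, with 8 of 57 in exon-exon reads, 8 of 61 in intron reads and 13 to 17 with 1 library left out. Directions turned for Notch2 in exon-exon reads (-0.20) and intron reads (-0.42), for Notch3 in unique exon reads without a filter (-0.0083), and for Notch4 in gene reads (-0.0758), on main-assembly rows (-0.1076) and with 1 library left out (-0.0586 to 0.3867). For these the cause was not tested. Notch1, Jag1, Dll1, Dll4 and Hes1 kept their direction and call under every alternative in which they were tested. Of the other genes named, intron reads gave Mfap2 4.28, Lck -0.62, Cd2 3.09 and Slamf1 2.93, and no call for Kdr (2.24), Emcn (0.17), Plvap (0.29) or Ly6a (-0.04). Exon-exon reads gave Sox18 2.82 and no call for Emcn (0.45) or Cd8a (1.99). On log2(TPM + 1) the changes of low genes were smaller, as for Dlk1 (1.71) and Kdr (1.16). Dtx3 was called under upper quartile scaling (0.32), DESeq2 (0.24) and voom (0.25). Upper quartile scaling moved the median of all genes to 0.08, with 2929 genes higher and 1820 lower against 2493 and 2240.

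With the replicate number as a block, 6 members were higher and 1 lower, Rfng, Numbl and Cd8a lost their calls (adjusted p = 0.061, 0.053 and 0.054) and Kit gained one (adjusted p = 0.022). Deviations of same-numbered libraries correlated at 0.01, -0.18, 0.21 and 0.31 over 10569 genes, and those of differently numbered ones at -0.41 to 0.20. Whether the numbers pair the samples cannot be told from these values. The main fit has no block because no label says that a number marks a shared animal or day. Depth limits Dll1, Dll4, Notch3 and Jag1 in HPC, where libraries held 35 or fewer reads.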
